A study of Rattus norvegicus with 12 samples.

Results

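Adgrg1, Mrgprf, Nfatc2, Pcsk2, Neurl3, Eepd1 and Olfml2a are 7 rat genes with some of the largest rises in transcript level when cardiac progenitor cells were placed on a surface. They were chosen from these data, as genes outside named pathways whose level rose most over suspension on fibronectin, on laminin and on dishes with no coating. They are 7 of the 16924 genes in the deposited count files, and all 7 were among the 10020 genes that passed the filter on low counts. Because the rises over suspension chose the genes, those rises are given as a description without a test. The comparisons between surfaces and between batches were not themselves used to choose the genes and were tested. They use the same attached libraries as those rises, so they are not independent of the choice. A large rise was asked for on every surface, which disfavours genes that are low on any of them.

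The cells are a rat cardiac progenitor line derived from a single clone. Total RNA was sequenced from 12 libraries, 3 in each of 4 groups that differ in culture condition: suspension, a fibronectin coat, a laminin coat, and a dish without coating. Cells were seeded sparsely to avoid contact between them and cultured for 2 h at a serum level of 0.1%. The labels attach this protocol to the suspension libraries as well and do not say how those cells were handled. All groups share the growth medium, which held 10% fetal bovine serum, leukemia inhibitory factor, basic fibroblast growth factor, erythropoietin and glutathione. The labels give no genotype, treatment or age that differs between groups. Each library carries a batch from 1 to 3 that equals its replicate number, so p-values describe the spread between 3 batches of 1 clonal line and not between animals.

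Cells that attach to a matrix engage integrins and other surface receptors, and these pass signals to the cytoskeleton, to small GTPases and to transcription factors. Adhesion G protein-coupled receptors such as the product of Adgrg1 bind matrix and cell-surface ligands through a long extracellular part. NFAT proteins, to which Nfatc2 belongs, are held in the cytoplasm until calcium and the phosphatase calcineurin release them to the nucleus. Fibronectin and laminin are matrix glycoproteins that bind different sets of integrins, and fibronectin is also a component of serum.

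Library totals lay between 15875160 and 20852160 counts. On the first principal component of all tested genes, which held 56.1% of the variance, the suspension libraries lay between -30.8 and -27.8. Attached libraries of batches 1 and 2 lay between -7.04 and 1.46, and the 3 attached libraries of batch 3 stood apart at between 20.8 and 41.9. Values without batch 3 are therefore given for the members' rises, their differences between surfaces and the counts over all genes. Calls of partner genes that ended without it are named. The labelled cell type was only partly visible in its markers. Of 8 cardiac progenitor and cardiac factors listed, 6 were in the files and 3 passed the filter. Gata4 had a mean of 88.4 CPM (counts-per-million scale), Kit of 3.09 CPM and Hand2 of 0.549 CPM. Tbx5 had 1 count over the 12 libraries, and Nkx2-5 and Isl1 had no count in any library. The fibroblast and mesenchyme markers, of which 6 of 8 passed the filter, summed to between 6576 and 7547 CPM in suspension. On the surfaces they summed to between 7297 and 7961 CPM. Most of this sum was Vim, with a mean of 5125 CPM over the 12 libraries.

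The CPM used for the levels are counts divided by the library total, without correction for gene length, so levels are compared between libraries for 1 gene and not between genes. In bulk RNA, fewer expressing cells and less RNA per cell cannot be told apart.

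The smallest of a gene's 3 log2 fold changes over suspension, from the edgeR model, placed the 7 genes among 492 genes that were called higher on all 3 surfaces and had a mean log2 CPM of at least 2. Cyp1a1, a cytochrome P450 enzyme induced through the aryl hydrocarbon receptor, stood first with 4.83, and Hey2, a Notch target, stood between members with 2.33. Neither is a member. Among all 10020 tested genes, called or not and at any level, other genes also rose more. Adgrg1 ranked 12, 9 and 8 there on fibronectin, laminin and no coating, and Pcsk2 ranked 25, 16 and 18. Adgrg1 had 2.70 and Nfatc2 2.64, and Pcsk2 was the last inside with 2.14. Just outside stood Notch1 with 2.00, Rap1gap2 with 1.98, Gper1 with 1.97 and Nod1 with 1.94. The step from Pcsk2 to Notch1 was smaller than the standard error of Pcsk2, which was 0.30.

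**Figure D1:**
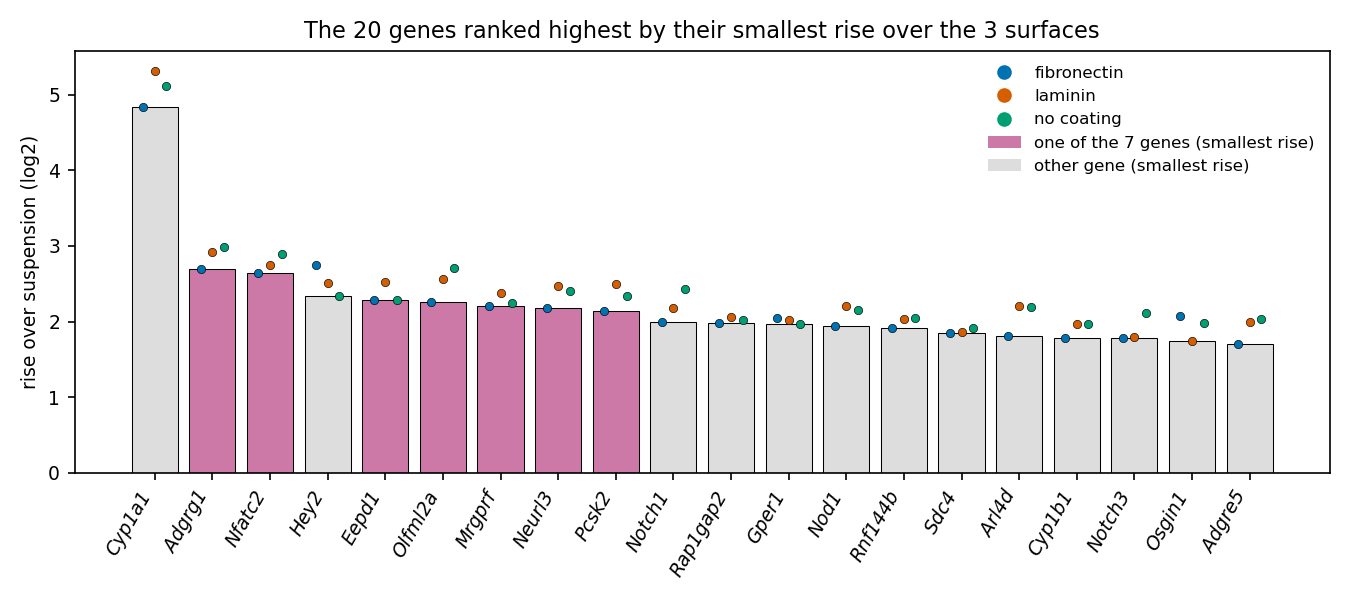
The 20 genes ranked highest by the smallest of their 3 log2 fold changes over suspension: bars give that smallest rise (coloured for the 7 genes, grey for others) and points the rise on each surface. The members run from 2.70 for Adgrg1 to 2.14 for Pcsk2, and Notch1 follows at 2.00.

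Promoter sequence is shown for 4 of the 7 genes, each of which holds a short motif of the NFAT family or of the aryl hydrocarbon receptor. Nfatc2 is a member, and Cyp1a1, a target of that receptor, stood first in the ranking above. Whether either factor acts on these genes was not tested. The sequences are from RefSeq assembly GRCr8 and run from 250 bases before to 50 bases after 1 annotated start per gene. The deposited counts were made on another build, rn4. Of the 7 genes, 5 had an entry. Mrgprf and Neurl3 did not. In the first sequence the capitals mark the aryl hydrocarbon receptor core GCGTG, and in the other 3 they mark the NFAT core GGAAA, which reads TTTCC when it lies on the opposite strand. Each is printed 5′ to 3′ on the gene's strand. Adgrg1 is at chr19:10047089-10047388 on the minus strand, Eepd1 at chr8:32233695-32233994 on the plus strand, Olfml2a at chr3:43098049-43098348 on the plus strand and Pcsk2 at chr3:151333688-151333987 on the plus strand.
Adgrg1: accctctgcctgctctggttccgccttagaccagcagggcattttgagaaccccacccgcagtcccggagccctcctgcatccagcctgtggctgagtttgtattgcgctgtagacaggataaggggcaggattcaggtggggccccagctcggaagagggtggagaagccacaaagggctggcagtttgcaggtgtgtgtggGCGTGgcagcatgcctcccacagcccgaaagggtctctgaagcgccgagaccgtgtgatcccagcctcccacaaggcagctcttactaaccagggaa
Eepd1: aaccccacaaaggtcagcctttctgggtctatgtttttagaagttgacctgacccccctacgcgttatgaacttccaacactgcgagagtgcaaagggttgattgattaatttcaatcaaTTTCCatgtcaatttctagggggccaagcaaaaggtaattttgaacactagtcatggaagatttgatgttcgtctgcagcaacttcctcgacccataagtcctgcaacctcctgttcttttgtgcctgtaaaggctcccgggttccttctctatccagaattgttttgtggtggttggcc
Olfml2a: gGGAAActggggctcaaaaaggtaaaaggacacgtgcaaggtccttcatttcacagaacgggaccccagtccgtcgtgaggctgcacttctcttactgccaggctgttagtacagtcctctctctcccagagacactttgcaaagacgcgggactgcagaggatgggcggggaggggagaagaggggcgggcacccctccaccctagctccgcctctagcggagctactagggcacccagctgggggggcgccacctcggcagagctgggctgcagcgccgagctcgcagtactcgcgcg
Pcsk2: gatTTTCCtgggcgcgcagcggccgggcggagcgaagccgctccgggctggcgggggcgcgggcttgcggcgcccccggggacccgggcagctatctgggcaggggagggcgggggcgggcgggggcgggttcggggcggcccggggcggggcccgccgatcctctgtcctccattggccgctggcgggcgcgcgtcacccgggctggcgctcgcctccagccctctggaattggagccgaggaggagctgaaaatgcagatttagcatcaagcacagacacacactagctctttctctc

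Each motif was searched on both strands. GGAAA was found in 3 of the 5 promoters, against 62.7% of the 33469 promoters in the table. GCGTG was found in 1 of 5, that of Adgrg1, against 29.7%. TGACG, the core of the cyclic AMP response element, was found in 1 of 5, that of Pcsk2, against 21.2%. The AP-1 site TGANTCA, the TEAD site GGAATG and the RBPJ site TGGGAA were found in none of the 5, against 7.33%, 14.2% and 25.7% of all promoters. TGGGAA shares its last bases with the start of GGAAA and the 2 can overlap. The promoter of Nfatc2 held none of the 6 motifs. Its GC content was 71.7%, that of Pcsk2 was 73.3%, of Olfml2a 63%, of Adgrg1 61% and of Eepd1 45.3%, where the median promoter had 51.7%. A match describes letters in this window only.

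Among the receptors, Adgrg1 (Entrez 260326), which encodes the adhesion receptor GPR56, had 6.22, 6.32 and 6.95 CPM in suspension batches 1, 2 and 3. On fibronectin it had 45.6, 37.0 and 40.9 CPM. It had 50.1, 46.0 and 51.6 CPM on laminin and 56.5, 45.5 and 51.2 CPM with no coating. Suspension was far below all 9 attached libraries: the lowest attached value was 5.32 times the highest suspension value. Group means were 6.50 ± 0.394 in suspension, 41.2 ± 4.31 on fibronectin, 49.2 ± 2.87 on laminin and 51.1 ± 5.53 with no coating (SD, n = 3 each). The fibronectin libraries all lay below the laminin libraries, and the laminin and no-coating ranges overlapped. The fold over suspension was 6.49 on fibronectin, 7.58 on laminin and 7.95 with no coating.

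Mrgprf (Entrez 266762) encodes an orphan receptor of the Mas-related family. It had 3.87, 1.72 and 2.80 CPM in suspension batches 1 to 3, the widest spread of the 7 genes in that group relative to its own level except Pcsk2. On fibronectin it had 13.4, 9.71 and 14.6 CPM. On laminin it had 15.2, 11.8 and 16.3 CPM, and with no coating 13.2, 10.6 and 15.3 CPM. Batch 2 was the lowest library in all 4 groups, and the 3 surfaces overlapped. Means were 2.80 ± 1.07 in suspension, 12.6 ± 2.54 on fibronectin, 14.5 ± 2.34 on laminin and 13.1 ± 2.32 with no coating (SD, n = 3 each). The lowest attached library was 2.51 times the highest suspension library, the smallest such gap of the 7 genes.

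Nfatc2 (Entrez 311658), the transcription factor NFAT1, had 1.99, 1.39 and 1.34 CPM in suspension batches 1 to 3. It had 10.5, 9.71 and 8.52 CPM on fibronectin, 11.7, 9.83 and 10.1 CPM on laminin and 12.6, 10.6 and 11.2 CPM with no coating. Batch 1 was highest in every group, and the lowest attached library was 4.28 times the highest suspension library. Means were 1.57 ± 0.363, 9.57 ± 0.983, 10.5 ± 0.989 and 11.5 ± 1.03 CPM in the same order (SD, n = 3 each). The laminin range overlapped both other surfaces, while the 3 fibronectin libraries lay just below the 3 no-coating libraries.

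Pcsk2 (Entrez 25121) encodes proprotein convertase 2, a protease that processes peptide precursors in secretory granules. Its suspension libraries held the fewest counts: 27, 28 and 12 in batches 1 to 3, or 1.63, 1.55 and 0.672 CPM. On fibronectin it had 6.74, 4.86 and 4.95 CPM, on laminin 9.14, 6.09 and 6.59 CPM, and with no coating 7.45, 5.48 and 6.22 CPM. Batch 1 was highest in every group, and batch 3 was low in suspension. Means were 1.29 ± 0.532, 5.51 ± 1.06, 7.27 ± 1.64 and 6.38 ± 0.994 CPM (SD, n = 3 each). All surfaces overlapped, and the lowest attached library was 2.98 times the highest suspension library.

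Neurl3 (Entrez 316326) encodes a RING-type ubiquitin ligase of the neuralized family. In suspension it had 4.47, 4.44 and 4.26 CPM, the tightest suspension group of the 7 relative to its mean. On fibronectin it had 18.1, 21.7 and 18.6 CPM, on laminin 21.5, 27.5 and 24.3 CPM, and with no coating 17.5, 25.9 and 26.0 CPM. Batch 1 was the lowest library on all 3 surfaces, the reverse of Nfatc2 and Pcsk2. Means were 4.39 ± 0.114, 19.5 ± 1.96, 24.4 ± 3.0 and 23.1 ± 4.88 CPM (SD, n = 3 each). The surfaces overlapped, with the lowest attached library 3.91 times the highest suspension library.

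Eepd1 (Entrez 315500) encodes an endonuclease/exonuclease/phosphatase family protein known for work at stalled replication forks and for its induction by liver X receptors in macrophages. It had 1.93, 1.72 and 2.19 CPM in suspension, 9.17, 10.5 and 8.15 CPM on fibronectin, 10.2, 11.99 and 11.5 CPM on laminin and 8.41, 10.8 and 8.999 CPM with no coating. Batch 2 was highest on every surface and lowest in suspension. Means were 1.95 ± 0.233, 9.27 ± 1.17, 11.2 ± 0.940 and 9.39 ± 1.23 CPM (SD, n = 3 each). All surfaces overlapped, and the lowest attached library was 3.73 times the highest suspension library.

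Olfml2a (Entrez 296708) encodes a secreted glycoprotein with an olfactomedin domain. In suspension it had 8.58, 8.82 and 9.13 CPM. On fibronectin it had 46.7, 35.2 and 42.5 CPM, on laminin 59.7, 41.5 and 55.5 CPM, and with no coating 61.9, 52.2 and 56.8 CPM. Batch 2 was the lowest library on each surface, and the no-coating libraries all lay above the fibronectin libraries. Means were 8.84 ± 0.278, 41.5 ± 5.78, 52.2 ± 9.50 and 57.0 ± 4.87 CPM (SD, n = 3 each). The lowest attached library was 3.86 times the highest suspension library.

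**Figure D2:**
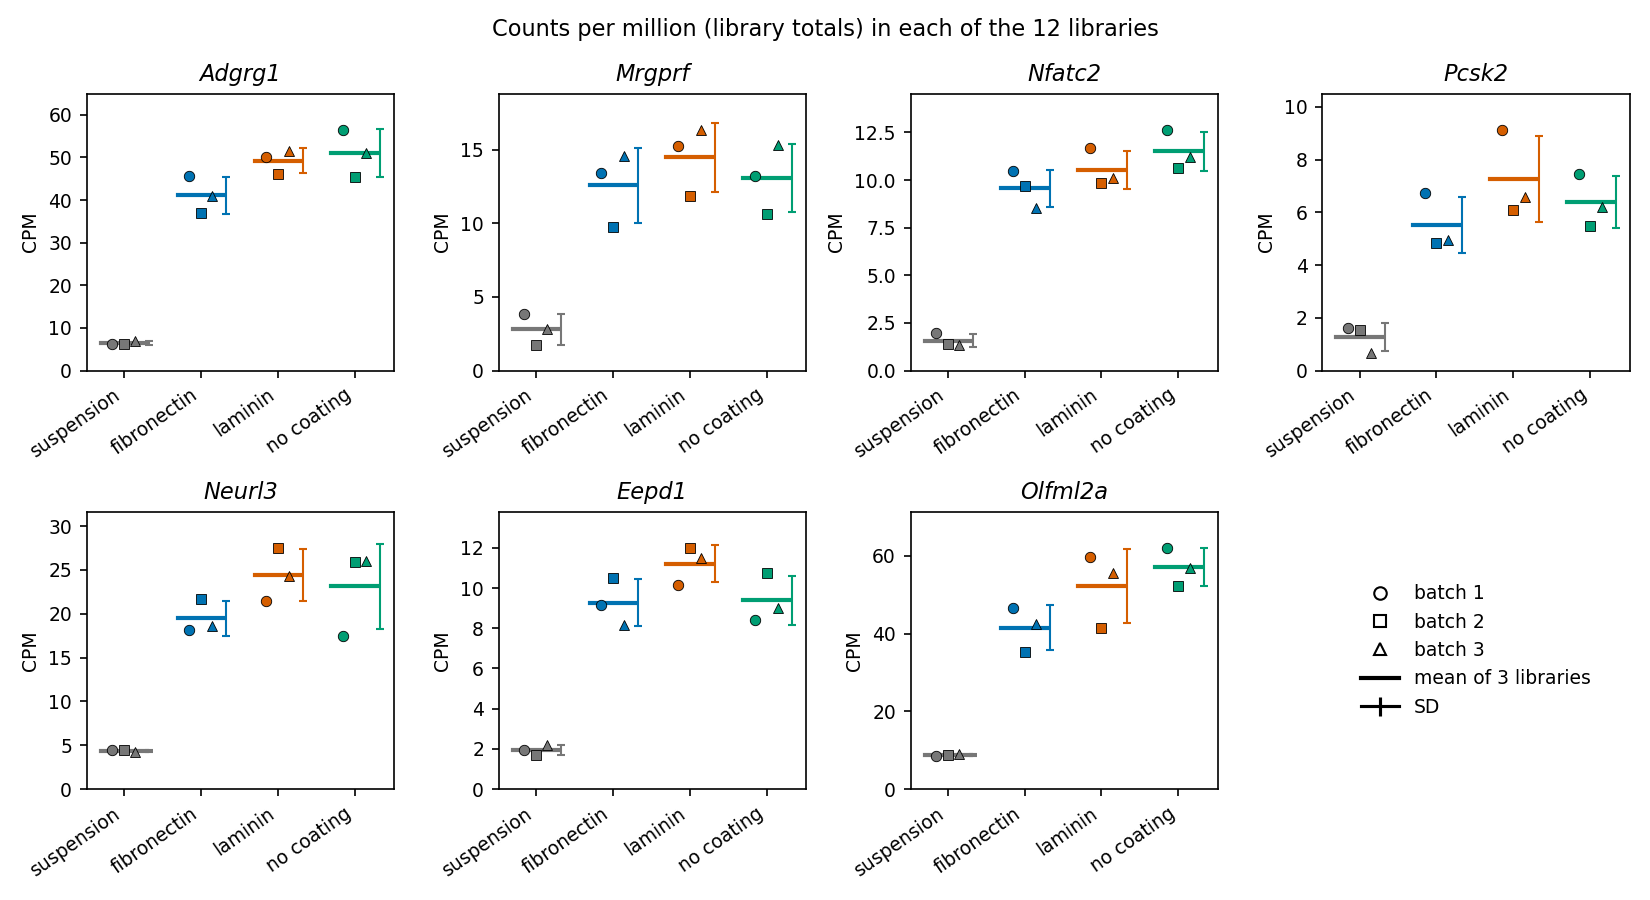
CPM of each of the 7 genes in the 12 libraries, with 1 panel per gene, points for libraries (shape gives the batch), horizontal lines for group means and vertical bars for the SD. In each panel every suspension point lies below every attached point, with a gap between 2.51-fold for Mrgprf and 5.32-fold for Adgrg1.

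Over the 3 surfaces the order of mean levels was not the same for all genes. Suspension was lowest for each. Fibronectin had the lowest attached mean for all 7, laminin had the highest for Mrgprf, Pcsk2, Neurl3 and Eepd1, and no coating had the highest for Adgrg1, Nfatc2 and Olfml2a. None of these neighbouring positions among the surfaces passed the adjusted test given below. The 3 comparisons with suspension share its 3 libraries and are not independent of each other. All 7 members were called higher in each, where 6.61% of the 10020 genes were called higher on fibronectin, 12.1% on laminin and 8.48% with no coating. Another 3.06%, 6.96% and 4.10% were called lower. Nothing is read from this, since the same contrasts chose the members. Over all genes the balance turned without batch 3, to 437 higher and 495 lower on fibronectin, 867 and 1035 on laminin and 533 and 673 with no coating, from 662 and 307, 1208 and 697, and 850 and 411. Without batch 3 the members' 21 log2 fold changes over suspension ran from 1.90 to 3.06, where with it they ran from 2.14 to 2.99. The largest move was 0.271, for Pcsk2 with no coating.

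Summed markers of other cell types, mostly at low levels, were also compared between suspension and the surfaces. The cardiomyocyte markers summed to between 1.62 and 2.17 CPM in suspension and between 3.97 and 6.38 CPM on the surfaces, of which Tnnt2 was the main part and Myh7 had no count. The 6 macrophage markers summed to between 34.2 and 36.9 CPM in suspension and between 49.0 and 62.6 CPM attached, nearly all of it Cd14, while Adgre1, Itgam and Lyz2 had 1, 6 and 5 counts over the 12 libraries. Lymphocyte markers, which bear on Nfatc2 and Adgrg1, summed to at most 0.679 CPM, with 6 of 10 at 0 and 3 counts of Ptprc in all. Of the 9 neuroendocrine and neuron markers, which bear on Pcsk2, Chgb and Syp had no count and Chga had 3. Their sum was mostly Ncam1, and lay between 196 and 228 CPM in suspension and between 163 and 204 CPM on the surfaces. Smooth muscle markers summed to between 426 and 531 CPM in suspension and between 368 and 428 CPM attached. Smtn had means of 275 and 180 CPM, Myh11 of 10.4 and 7.44 CPM and Des of 4.81 and 4.56 CPM. Tagln (187 and 199 CPM) and Cnn1 (0.101 and 0.153 CPM) went the other way. The fibroblast and mesenchyme markers were mixed. Vim, the main part of their sum, had means of 4589 and 5304 CPM, Pdgfrb of 45.3 and 81.2 CPM and Pdgfra of 256 and 355 CPM. Col1a1 (1251 and 1136 CPM), Col1a2 (458 and 419 CPM) and Thy1 (0.116 and 0.0737 CPM) went the other way. Col3a1 had 348 and 351 CPM, and Tcf21 had no count. The part of these markers in the members' values was not tested.

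Whether the coat mattered for these genes was tested with surface against surface. On laminin all 7 genes had higher estimates than on fibronectin, from 0.10 (95% interval -0.21 to 0.42) on the log2 scale for Nfatc2 to 0.36 (-0.19 to 0.92) for Pcsk2. None passed edgeR's quasi-likelihood test with Benjamini-Hochberg adjustment over all genes, with an adjusted p of 0.9998 for each, and 0 of 7 had an unadjusted p under 0.05. Over all genes 0.150% were called in this comparison, which is 15 genes. Adgrg1 came with 0.22 (-0.02 to 0.46), Olfml2a with 0.30 (-0.02 to 0.62), Neurl3 with 0.29 (-0.03 to 0.61), Eepd1 with 0.24 (-0.05 to 0.53) and Mrgprf with 0.17 (-0.33 to 0.67). With the batch as a block, the 95% intervals lay above 0 for Adgrg1 (0.05 to 0.41) and Olfml2a (0.07 to 0.52). The same was true of Neurl3 (0.06 to 0.52) and Pcsk2 (0.02 to 0.70), while those of Eepd1, Mrgprf and Nfatc2 covered 0. These intervals are not adjusted for the number of genes. The smallest adjusted p with the block was 0.520 by edgeR, for Olfml2a. Without batch 3 the 7 estimates ran from 0.06 for Nfatc2 to 0.36 for Pcsk2. Within batches, laminin was above fibronectin in 3 of 3 batches for all 7 genes. The same held for 16.7% of all tested genes, and for 35.7% of the 485 other genes that were called higher on all 3 surfaces and had a mean log2 CPM of at least 2. Estimates without regard to batch were higher on laminin for 48.0% and 74.0% of these genes. Of the genes ranked beside the members, Cyp1a1, Notch1, Rap1gap2 and Nod1 also rose more on laminin than on fibronectin, while Hey2 and Gper1 rose less. The direction is therefore not particular to the members.

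Between fibronectin and no coating, Olfml2a and Adgrg1 were lower on fibronectin in 3 of 3 batches, by the largest margins of the list. Olfml2a differed by -0.44 (95% interval -0.76 to -0.12) on the log2 scale, with an unadjusted p of 0.0115 and an adjusted p of 0.797 by edgeR. With the batch as a block the adjusted p was 0.116. Adgrg1 differed by -0.29 (-0.53 to -0.05), with an unadjusted p of 0.0213 and an adjusted p of 0.99999 by edgeR. So 2 of 7 were under 0.05 unadjusted and 0 of 7 were called, where 344 of the 10020 genes were under 0.05 unadjusted and 0.180%, or 18, were called. Nfatc2 with -0.25 (-0.56 to 0.06) and Pcsk2 with -0.20 (-0.76 to 0.36) were also lower on fibronectin in 3 of 3 batches. That made 4 of 7 members, against 15.6% of all tested genes and 22.1% of the other genes called higher on every surface. Of the genes ranked beside the members, Cyp1a1, Notch1, Rap1gap2 and Nod1 also rose less on fibronectin than with no coating, while Hey2 and Gper1 rose more. Neurl3 with -0.23 (-0.55 to 0.10) and Mrgprf with -0.04 (-0.54 to 0.47) varied in direction between batches. The estimate for Eepd1 was nearest 0, with an interval from -0.29 to 0.30. With the batch as a block, the intervals of Olfml2a (-0.67 to -0.22), Adgrg1 (-0.47 to -0.11) and Nfatc2 (-0.43 to -0.07) lay below 0. Those of Pcsk2, Neurl3, Mrgprf and Eepd1 covered 0. Without batch 3 the estimates ran from -0.47 for Olfml2a to 0.05 for Eepd1, with Neurl3 at -0.11.

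Between laminin and no coating the 7 differences ran from -0.15 for Nfatc2 (95% interval -0.46 to 0.16) to 0.24 for Eepd1 (-0.05 to 0.53) on the log2 scale, and every interval covered 0. Without batch 3 the estimates ran from -0.20 for Olfml2a to 0.20 for Pcsk2. Eepd1, Mrgprf and Pcsk2 were higher on laminin in 3 of 3 batches, and Nfatc2 and Olfml2a were lower in 3 of 3. By edgeR 0 of all 10020 genes were called here (0%), with 156 under 0.05 unadjusted, of which none was a member. DESeq2 also called 0, with 105 under 0.05 unadjusted. DESeq2 and the model with batch as a block also called 0 of the 7 members in each of the 3 comparisons between surfaces, where the block called 0.409% of all genes for laminin against fibronectin and 0.469% for fibronectin against no coating. Over all settings tried, the smallest adjusted p of a member between surfaces was 0.116, for Olfml2a with the batch as a block. A p that misses the threshold does not show that the surfaces act alike.

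**Figure D3:**
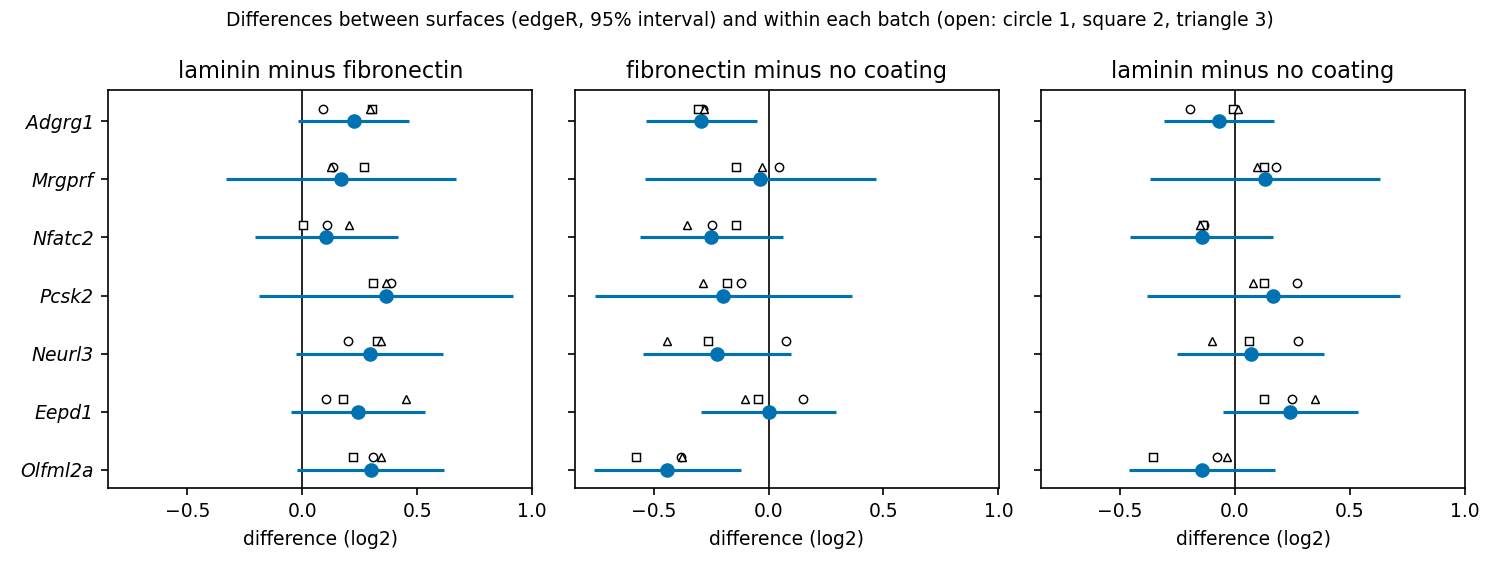
Log2 differences between surfaces for the 7 genes. Filled points are edgeR estimates and bars their 95% intervals, both without a batch block. Open symbols give the difference within each batch. The laminin minus fibronectin estimates are all above 0, from 0.10 to 0.36, and in the fibronectin minus no-coating panel the bars of Olfml2a and Adgrg1 do not reach 0.

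Differences between batches were common over all genes, and the members did not all move in the same way. Batch was tested in the 9 attached libraries in edgeR, with the surface in the model. The test called 57.0% of all tested genes and 6 of the 7 members. Nothing about the members is read from that count. Mrgprf had the smallest adjusted p, 0.00116, with means of 13.96, 10.7 and 15.4 CPM in batches 1, 2 and 3, so that batch 2 was low. Olfml2a (adjusted p = 0.00220, edgeR) had 56.1, 43.0 and 51.6 CPM, and Adgrg1 (0.0127) had 50.7, 42.8 and 47.9 CPM, again with batch 2 the lowest. Pcsk2 (0.00228) had 7.77, 5.48 and 5.92 CPM and Nfatc2 (0.0286) had 11.6, 10.1 and 9.96 CPM, with batch 1 the highest. Neurl3 went the other way, with 19.0, 25.0 and 22.9 CPM and an adjusted p of 0.0183. Eepd1 had 9.25, 11.1 and 9.55 CPM and was not called (adjusted p = 0.0599, edgeR).

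In the attached libraries the largest difference from batch 1 was -0.52 on the log2 scale, for Pcsk2 in batch 2. The smallest rise of Pcsk2 over suspension was 2.14. Large rises chose the genes, so nothing is read from the batch difference being smaller. Within suspension, batch 3 of Pcsk2 lay -1.12 on the log2 scale from the mean of batches 1 and 2, at 12 counts. Batch 3, which stood apart over all genes, was highest on all 3 surfaces for Mrgprf only, and it was never highest on a surface for Nfatc2, Eepd1, Olfml2a or Pcsk2. The batch call was lost for Adgrg1 without the fibronectin group (adjusted p = 0.0503, edgeR) or the no-coating group (0.154). For Olfml2a, Neurl3 and Pcsk2 it was lost without the laminin group, with adjusted p-values of 0.0606, 0.143 and 0.0618 by edgeR. For Nfatc2 it was lost without the fibronectin (0.0686), laminin (0.166) or no-coating group (0.140), with library-size scaling (0.0668) and with DESeq2 (0.275).

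**Figure D4:**
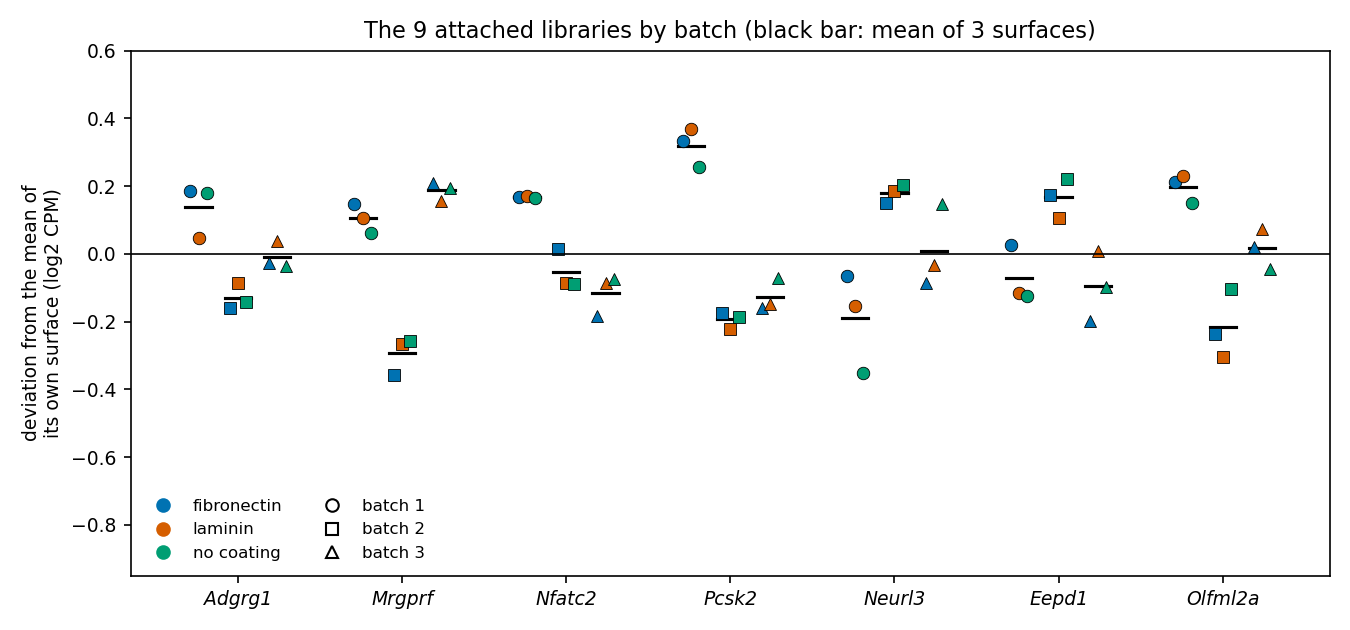
Deviation of each attached library from its surface mean (log2 CPM) for the 7 genes, with colour for the surface, shape for the batch and black bars for the mean of the 3 surfaces. Batch 2 lies low for Mrgprf, Olfml2a and Adgrg1 and high for Neurl3, and batch 1 lies high for Pcsk2 and Nfatc2.

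Family relatives of the members and genes of the pathways they are known from were read from 10 lists, with 75 of their genes tested. Of these 75, edgeR called 5 higher and 4 lower on fibronectin than in suspension, 10 higher and 6 lower on laminin, and 7 higher and 5 lower with no coating. Over all genes 9.67%, 19.0% and 12.6% were called in either direction. With batch as a block the counts were 10 higher and 14 lower, 15 higher and 19 lower, and 14 higher and 15 lower, where 28.7%, 43.2% and 38.8% of all genes were called. Between surfaces edgeR called 0 of the 75. Unadjusted p-values under 0.05 numbered 3 for laminin against fibronectin, 2 for fibronectin against no coating and 0 for laminin against no coating, and DESeq2 called 0, 1 and 0. Beyond the libraries named with each gene below, fitting the compared groups alone, another scaling or DESeq2 also ended some of the calls that leaving out 1 library ended.

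Of 20 other adhesion G protein-coupled receptors listed, 12 were in the files and 3 passed the filter. Adgre5, the receptor CD97, rose on every surface. It had 55.3 ± 0.546 CPM in suspension, 177 ± 10.1 on fibronectin, 220 ± 1.96 on laminin and 223 ± 8.12 with no coating (SD, n = 3 each). Its log2 fold changes over suspension were 1.71 ± 0.07, 2.00 ± 0.07 and 2.03 ± 0.07 (SE), with adjusted p-values of 9.79e-07, 2.62e-07 and 2.24e-07 by edgeR. As with Adgrg1, its fibronectin mean was the lowest of the surfaces. It differed from no coating by -0.32 ± 0.07 on the log2 scale (SE, adjusted p = 0.230 by edgeR), and with batch as a block it was called lower on fibronectin, adjusted p = 0.0365. Adgrl2, the latrophilin 2 receptor, fell by 0.41 on laminin and by 0.35 with no coating, and both calls were lost without suspension replicate 2 or 3. The first was also lost without laminin replicate 3 and the second without no-coating replicate 2 or 3 or without batch 3, with adjusted p up to 0.155 by edgeR. With batch as a block it was also called lower on fibronectin (adjusted p = 0.0465). The median log2 fold change of the 3 genes lay between -0.05 and 0.07 over the 3 suspension comparisons, beside -0.01 and 0.00 for all genes.

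Of 14 genes for ligands and signalling partners of the Adgrg1 product, all were tested. Cd9, a tetraspanin that associates with the receptor, rose by 0.78, 0.86 and 0.79 on the log2 scale on fibronectin, laminin and no coating (SE 0.06 each, adjusted p = 1.69e-05, 6.99e-06 and 1.12e-05 by edgeR). Tgm2, tissue transglutaminase and a matrix ligand of the receptor, rose by 0.65, 0.96 and 0.95 (SE 0.08 each), from 15.5 ± 0.923 CPM in suspension to 23.7 ± 0.929, 30.1 ± 1.62 and 29.6 ± 2.37 CPM. Col3a1, the collagen III ligand, had 348 ± 122 CPM in suspension and between 346 and 357 CPM on the surfaces, and was not called. Gnaq, a G protein alpha subunit, fell by 0.62, 0.62 and 0.61, and these calls were lost without suspension replicate 2 or 3. The fibronectin call was also lost without fibronectin replicate 1 or 3 and the laminin call without laminin replicate 3, with adjusted p up to 0.103 by edgeR. Rhoa, the GTPase downstream of the receptor, was called higher on laminin (0.21) and no coating (0.20), and Arhgef11, one of its exchange factors, lower on laminin (-0.32). Both were lost without any 1 of the 3 suspension replicates, Rhoa also without replicate 2 or 3 of the surface or without batch 3, and Arhgef11 without laminin replicate 1 or 2, with adjusted p up to 0.150 and 0.122 by edgeR. Rock1, also in the list, had log2 fold changes of -1.05, -0.94 and -1.03 on fibronectin, laminin and no coating, and Rock2 of -0.94, -0.93 and -1.01. In the main fit neither was called (adjusted p between 0.119 and 0.180 by edgeR). Both were called lower on each surface with batch as a block (adjusted p up to 0.0169 by edgeR) and without batch 3 (up to 0.00807). Tgm2, Col3a1, Gnaq, Rhoa, Arhgef11, Rock1 and Rock2 were named after their values were seen. The median of the 14 lay between -0.01 and 0.04.

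In the fit without a batch block, no other gene of the calcineurin and NFAT pathway was called higher on a surface. Of 16 genes, 15 were tested, and 0 were called higher and 1 lower on each surface by edgeR, with 0, 0 and 1 higher at an unadjusted p under 0.05 and 0 higher by DESeq2. The gene that fell was Akap5, a scaffold protein that anchors calcineurin near the membrane, from 2.41 ± 0.534 CPM in suspension to 0.487 ± 0.157, 0.339 ± 0.294 and 0.403 ± 0.175 CPM (SD, n = 3 each). Its log2 fold changes were -2.26 ± 0.42, -2.73 ± 0.44 and -2.52 ± 0.44 (SE), with adjusted p-values of 0.00737, 0.00256 and 0.00503 by edgeR. It was called in each setting checked for partner genes, which did not include the fit without the low-count filter. Rcan1, a calcineurin inhibitor and NFAT target, had 75.6 ± 11.3 CPM in suspension and 75.3 ± 11.5, 78.4 ± 12.1 and 71.9 ± 11.3 CPM on fibronectin, laminin and no coating. With batch as a block, Nfatc3, Nfatc4, Nfat5 and Ppp3cc were also called lower on laminin and with no coating, which made 5 lower in each, and Cabin1, an inhibitor of calcineurin, was called higher with no coating (adjusted p = 0.0245). The median of the 15 was between -0.14 and -0.11. Of 8 store-operated calcium entry genes, Stim2, an endoplasmic reticulum calcium sensor, was the 1 called, with log2 fold changes of -0.35, -0.37 and -0.40. All 3 calls were lost without suspension replicate 2 or 3, that on fibronectin also without suspension replicate 1 or any fibronectin replicate, and that on laminin without laminin replicate 2 or 3, with adjusted p up to 0.141 by edgeR.

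Of 13 listed genes for other proprotein convertases and granule peptide processing, 10 were tested. Called higher on laminin were Cpe, carboxypeptidase E, by 0.60 ± 0.17 (SE), and Mbtps1, site-1 protease, by 0.23 ± 0.07. On fibronectin and no coating edgeR and DESeq2 called none higher or lower, with 2 and 1 under 0.05 unadjusted. With batch as a block, Mbtps1 was called higher on fibronectin (adjusted p = 0.0126) and with no coating (0.0066), and Furin, a ubiquitous convertase, lower on fibronectin (0.0238). The Cpe call was lost without suspension replicate 1 or 2 or laminin replicate 1 or 2, and the Mbtps1 call, a gene named after its values were seen, without any 1 suspension replicate, laminin replicate 1 or 3 or batch 3, with adjusted p up to 0.0957 and 0.133 by edgeR. Scg5, which encodes 7B2, the chaperone that proprotein convertase 2 needs to mature, had 25 counts over all 12 libraries and was not tested. Pcsk1, the other granule convertase, had 5.

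Among 6 other neuralized and Notch ligand ubiquitin ligases, none was called higher by edgeR or DESeq2, and none was under 0.05 unadjusted in that direction. Neurl4 fell by 0.40, 0.43 and 0.38 on fibronectin, laminin and no coating, from 40.6 ± 2.73 CPM to between 30.0 and 30.9 CPM. Its laminin call held in each setting checked, the fit without the low-count filter not among them. The other 2 were lost without any 1 suspension replicate, without any 1 fibronectin replicate or without no-coating replicate 1 or 2, with adjusted p up to 0.0745 by edgeR. So Neurl3 and Neurl4 had opposite signs.

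Among 12 other olfactomedin domain genes, 6 were tested. Olfml2b, the closest relative of Olfml2a by name, was called higher on each surface, from 0.412 ± 0.385 CPM in suspension to 1.56 ± 0.226, 1.75 ± 0.346 and 1.71 ± 0.243 CPM. Its log2 fold changes were 1.97 ± 0.43, 2.10 ± 0.43 and 2.09 ± 0.43 (SE, adjusted p = 0.0176, 0.00868 and 0.0112 by edgeR). These counts are low, and all 3 calls were lost without batch 3. On fibronectin the call was also lost without suspension replicate 2 or 3 or fibronectin replicate 1 or 3, and with no coating without suspension replicate 3, with adjusted p up to 0.104 by edgeR. Olfm2, named after its values were seen, was called higher on laminin (0.61) and with no coating (0.72), and lost both calls without suspension replicate 2 or 3, without batch 3 and without replicate 2 or 3 of the surface, and the laminin call without laminin replicate 1, with adjusted p up to 0.153 by edgeR. Adgrl2, given above, also carries an olfactomedin domain.

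Of the 8 liver X receptor genes, a group known to include Eepd1 in macrophages, Mylip, which encodes a ubiquitin ligase for the low-density lipoprotein receptor, rose by 0.89, 1.17 and 1.01 on fibronectin, laminin and no coating (SE 0.09 each, adjusted p = 1.44e-04, 1.50e-05 and 4.89e-05 by edgeR). It went from 31.1 ± 4.44 CPM to 56.1 ± 0.894, 69.7 ± 4.83 and 61.9 ± 3.19 CPM. Nr1h2, the receptor LXR-beta, named after its values were seen, was called higher on laminin (0.40), a call lost without suspension replicate 2 or 3 or laminin replicate 3, with adjusted p up to 0.0909 by edgeR. The difference of Nr1h2 between surfaces was not called. With batch as a block, Nr1h2 was called higher on each surface (adjusted p = 0.0212, 0.00378 and 0.0138 by edgeR). The block also called Lpcat3 higher on laminin (0.0355), Nr1h3 lower on fibronectin (0.0328) and Abca1 lower with no coating (0.0325). In the main fit Abca1, Srebf1, Scd, Pltp, Lpcat3 and Nr1h3 were not called on any surface. Abcg1, with 26 counts over the 12 libraries, was not tested. Among 7 replication fork repair genes, the other setting in which Eepd1 is known, edgeR and DESeq2 called 0 in each comparison with suspension, with 0, 1 and 0 under 0.05 unadjusted on fibronectin, laminin and no coating. With batch as a block 2, 2 and 1 were lower. Rad50, a subunit of the MRN repair complex, had log2 fold changes of -0.83, -0.79 and -0.95 and was called lower on each surface without batch 3 (adjusted p = 0.0139, 0.0168 and 0.0119) and with the block. None of the 8 other Mas-related receptors passed the filter, so Mrgprf had no relative to compare with. The median log2 fold changes over suspension on fibronectin, laminin and no coating, with all genes at -0.01 or 0.00, were -0.08, -0.03 and 0.07 for calcium entry, -0.04, 0.03 and 0.04 for the convertases and -0.07, -0.24 and -0.01 for the ubiquitin ligases. They were 0.16, 0.24 and 0.21 for the olfactomedin genes, 0.07, 0.01 and -0.03 for the liver X receptor genes and -0.28, -0.28 and -0.25 for the fork repair genes.

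**Figure D5:**
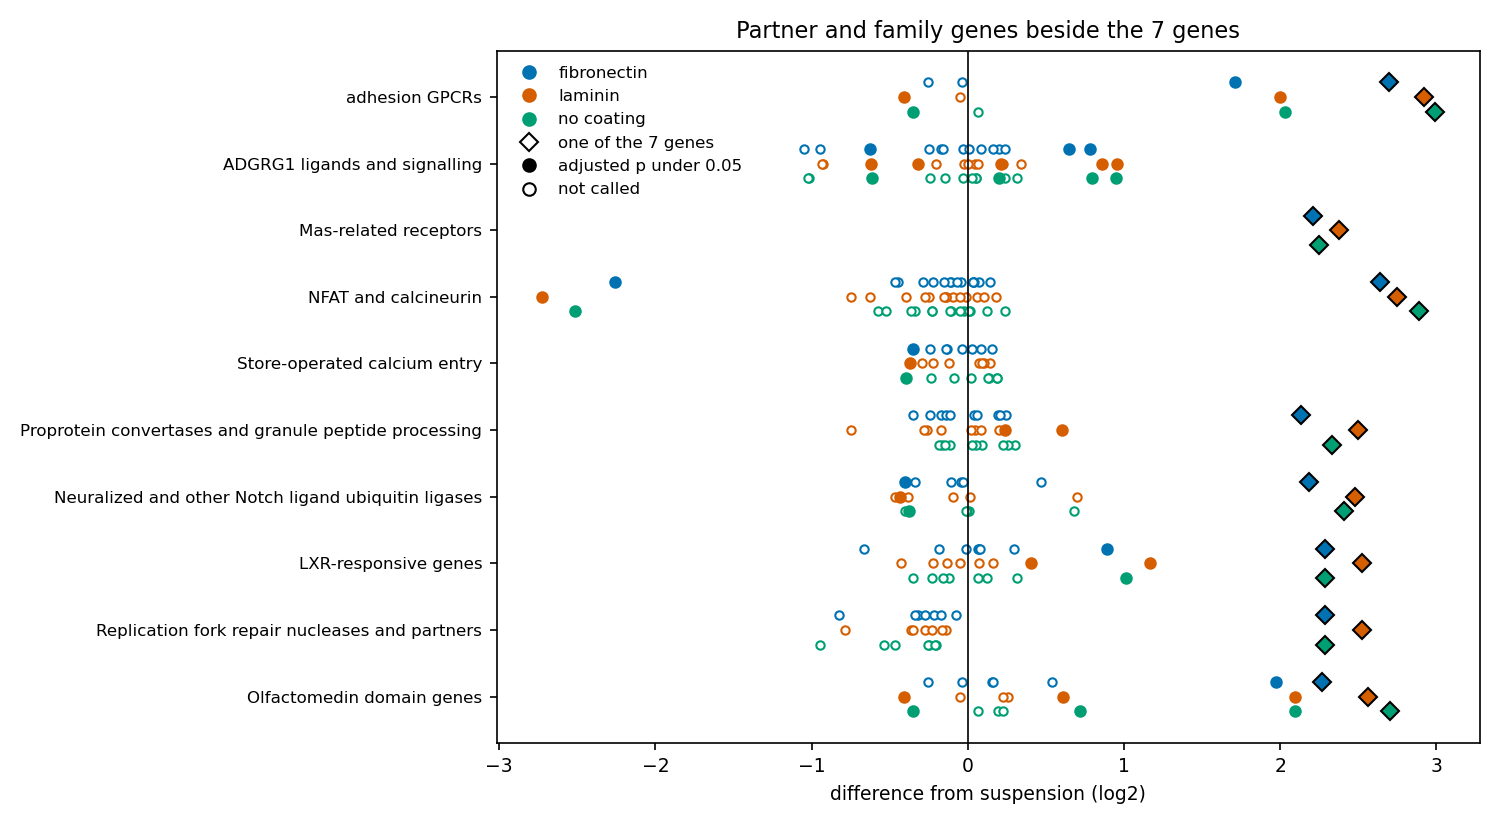
Log2 fold changes over suspension of the genes in the partner lists, by list and surface, with filled points for genes called by edgeR, open points for genes not called and diamonds for the 7 genes themselves, which carry no test here. Adgre5, Cd9, Tgm2, Olfml2b and Mylip lie above 0 on each surface, and Akap5 is the lowest point, at -2.73 on laminin.

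Profiles over the 12 libraries were compared by the root mean square difference of log2 CPM, each gene centred on its own mean, among tested genes with mean log2 CPM of at least 2. Smaller values mean more alike, and the median gene lay between 1.02 and 1.25 from a member. Nearest to Adgrg1 were Notch1 (0.322) and Nod1 (0.340), and the same genes were nearest to Nfatc2 (0.294 and 0.299) and Olfml2a (0.210 and 0.214). Notch1 encodes the Notch receptor and Nod1 an intracellular sensor of bacterial peptidoglycan. Mrgprf was nearest to Gper1 (0.205), a membrane estrogen receptor, and then Nod1 (0.256). Eepd1 was nearest to Rap1gap2 (0.230), a GTPase-activating protein for Rap1, and Nod1 (0.248). Neurl3 was nearest to Arl4d (0.217), a small GTPase, and Notch1 (0.242), and Pcsk2 to Nod1 (0.295) and Sdc4 (0.337), the heparan sulfate proteoglycan syndecan 4. Several of these stood next to the members in the ranking of rises, and all points share the 3 low suspension libraries.

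Among the members' own 21 pairs, Eepd1 and Neurl3 were the most alike (0.156), followed by Adgrg1 with Olfml2a (0.188) and Adgrg1 with Nfatc2 (0.189). Eepd1 and Pcsk2 were the least alike (0.428). Eepd1 and Neurl3 were the members with higher levels in batch 2 than in batch 1 on the surfaces, by 0.24 and 0.37 on the log2 scale. Pcsk2 had the largest difference the other way.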

How the data were processed

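The deposited files hold raw read counts per gene, keyed by Entrez identifier, 1 file per library, per the file headers. Per the submitters' processing notes the build was rn4. Which aligner, counter, annotation and strand setting produced them is not stated, so reads of overlapping or antisense genes and near copies cannot be separated. Per the labels' protocols, libraries were stranded total RNA (TruSeq). Of 16924 identifiers, 16761 matched a symbol in the RefSeq table of GRCr8, which was used for names. No pair of libraries in a group agreed within sampling noise (chi-square per degree of freedom at least 10.1).

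Members, partner lists and marker lists were chosen with earlier results of these data known. Counts were filtered with filterByExpr, scaled with TMM (factors 0.962 to 1.03) and fitted over all 4 groups with edgeR 4.0.16 in R 4.3.3 (glmQLFit, glmQLFTest), with Benjamini-Hochberg adjustment over 10020 genes and a threshold of 0.05. The biological coefficient of variation was 0.152, and 0.100 with a batch block. Batch was tested in the 9 attached libraries with the surface as a term. Profiles used log2 CPM with a prior count of 2. The scripts were tested on simulated data.

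The labels give the same batch to libraries with the same replicate number, so the numbers pair the libraries. Deviations from group means correlated with a median of 0.409 (lowest 0.0360) over the 18 same-batch pairs. The median was -0.124 over the 36 pairs that differed in both batch and group. Same-batch pairs of attached libraries had 0.514 to 0.853, and those of a suspension with an attached library had 0.0360 to 0.304. The pairing was therefore weaker in the comparisons with suspension. Each group was centred on its own mean, so the -0.124 is not independent of the same-batch values. The fit without the block was the main one.

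Genes named are the 7 members, the 2 nearest profiles of each, neighbours in rank, and from each partner list the called gene with the smallest p per comparison. Marker genes named come from the marker lists. All other genes named were chosen after their values were seen. Alternatives were DESeq2 1.42.0, its size factors, library-size scaling, no low-count filter, the block, the compared groups only, and leaving out each library or batch 3.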

Additional observations from a re-analysis of the deposited data

How the results depend on the processing

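The members' rises over suspension kept their sign in every setting tried, from 1.82 (Pcsk2 on fibronectin without suspension replicate 3) to 3.08 (Nfatc2 with no coating without suspension replicate 1) on the log2 scale. Counts of genes called depended on the design. With the replicate block (pairing by batch) they went from 969 to 2872 on fibronectin against suspension, from 1905 to 4333 on laminin and from 1261 to 3889 with no coating, and from 15 to 41 for laminin against fibronectin and from 18 to 47 for fibronectin against no coating. For these last 2 comparisons DESeq2 called 45 and 53. Fitting the 2 groups compared only gave 450 for no coating against suspension, 9 for laminin against fibronectin and 11 for fibronectin against no coating. Leaving out 1 library gave 410 to 719, 794 to 1445 and 533 to 1295 for fibronectin, laminin and no coating against suspension, the lowest each time without suspension replicate 3, 7 to 15 for laminin against fibronectin and 10 to 14 for fibronectin against no coating. Without batch 3 the 5 counts were 932, 1902, 1206, 14 and 12. The batch test called 5715 genes, and 2155 to 5845 with 1 surface group left out, of which 2155 was without laminin and 3211 without no coating. Among the members, small differences between surfaces changed sign. Eepd1 on fibronectin against no coating was -0.0167 with library-size scaling and -0.0922 to 0.119 with 1 library left out, and Mrgprf was -0.153 to 0.125. For laminin against no coating, leaving out 1 library gave -0.139 to 0.0261 for Adgrg1, -0.0884 to 0.170 for Neurl3 and -0.0424 to 0.311 for Pcsk2. The cause was not tested. Depth limits Pcsk2 most, with 12 counts in its lowest suspension library.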
